A study of Mus musculus with 9 samples.

Results

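The liver X receptors (LXRs) and the genes through which a macrophage takes up, stores and sheds cholesterol under their control were examined in sorted liver macrophages of mice by RNA-seq. The group was chosen by gene symbol and holds 9 of the 23413 genes of the count table, the receptor genes Nr1h3 (LXRα) and Nr1h2 (LXRβ), the LXR targets Abca1, Abcg1, Apoe and Mylip, the lysosomal cholesterol exporters Npc1 and Npc2, and the esterifying enzyme Soat1. All 9 were found in the table and all 9 passed the filter on low counts. Male C57BL/6 mice, 5 weeks old at the start, were fed a normal chow (NC, 10 kcal% fat, called normal diet in the labels) or a high-fat diet (HFD, 60 kcal% fat) for 8 weeks. From week 3, HFD-fed mice were injected every 5 days with vehicle (PEG3000) or with diphenyleneiodonium (DPI) at 2 mg/kg, a compound studied as an agonist of the receptor GPR3, and the labels give no injection for the NC-fed mice. F4/80+CD11b+Gr1low macrophages were sorted, a gate described as 80 to 90% Kupffer cells (KCs), the resident macrophages of the liver, and the deposited table holds 2 NC, 3 HFD vehicle and 4 HFD DPI libraries. The labels describe instead a 24 h treatment of purified cells with 500 nM DPI, so that the treatment of the cells is known from the design text and the methods only. HFD vs NC is the vehicle group against the NC group, and both HFD comparisons share the 3 vehicle libraries.

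LXRs are nuclear receptors that sense oxidised forms of cholesterol. With their partner RXR they sit on DNA, where without ligand they hold corepressors, and on ligand binding they raise the transcription of genes that carry cholesterol out of the cell. ABCA1 loads cholesterol onto lipid-poor apolipoprotein A-I, ABCG1 exports it to mature high-density lipoprotein particles, and apolipoprotein E accepts lipid outside the cell. MYLIP (also called IDOL) marks the LDL receptor for degradation, NPC2 and NPC1 hand cholesterol out of the lysosome, and SOAT1 esterifies it for storage in droplets.

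LXR-RXR binds direct repeats of a hexamer spaced by 4 bases (DR4), and the DR4 element of Abca1 is the textbook example. The RefSeq promoter table of GRCm38.p6, which spans 250 bases before to 50 after each gene start, held 7 of the 9 genes in 10 windows. The bases before the Abca1 start are shown because they hold the only DR4-like match among these windows, in capitals (chr4:53159896-53160145, minus strand, 250 bases).
Abca1: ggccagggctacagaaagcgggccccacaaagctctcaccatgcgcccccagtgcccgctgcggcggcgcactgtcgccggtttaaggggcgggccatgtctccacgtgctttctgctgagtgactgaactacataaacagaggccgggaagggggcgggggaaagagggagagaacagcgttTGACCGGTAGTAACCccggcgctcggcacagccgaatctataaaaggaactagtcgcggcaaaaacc
The capitals read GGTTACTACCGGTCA on the opposite strand, lie 67 to 53 bases before the start and occupy chromosome 4 from 53159948 to 53159962. They match the spelling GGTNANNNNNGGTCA, which was chosen after this element was seen and occurred, on either strand, in 0.207% of 32851 windows of the same length. The consensus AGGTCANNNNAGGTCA, which contains the half-site AGGTCA at each end, occurred in 0.0152% of windows and in none of those of the 7 genes. The half-site alone occurred in 16.3% of all windows and the sterol response element spelling TCACNCCAC in 1.24%, and neither was found in a window of the 7 genes.

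Libraries held 3534325 to 15585775 counts, of which the ribosomal RNA precursor Rn45s took 27.0 to 44.5%, and 3 counts, the smallest number told apart from none, corresponded to 0.184 to 1.02 CPM (counts scaled to a common library total), a limit that covers counting error only. General macrophage markers, led by Lyz2 and Ctsb, summed to 16661 to 45836 CPM. Most defining markers of KCs were low or absent. The 12 KC markers summed to 231 to 975 CPM, mostly from Id3, a transcriptional regulator that other leukocytes also express, at 136 to 917 CPM, while each of the others was at 45.5 CPM or less. Id3 passed the study's threshold of an unadjusted p under 0.05 and 1 log2 unit in HFD vs NC (log2 fold change 1.76, SE 0.46) and DPI vs NC (1.17, SE 0.44), and the second call was lost without NC library 2 and with library totals as the only scaling. The KC lectin gene Clec4f was at 0 and 244 counts with NC, at 42, 0 and 0 counts with vehicle and at 219, 6, 4 and 6 counts with DPI, Vsig4 had at most 49 counts, and Marco had none except for 1 count in a DPI library. Monocyte markers, led by Plac8 and Ly6c2, summed to 3623 to 8107 CPM. The libraries are therefore called sorted liver macrophages. The NC libraries correlated with each other less (Spearman 0.740) than vehicle libraries (0.867 to 0.880) or DPI libraries (0.838 to 0.887) did.

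None of the 9 genes passed a test in any comparison. With edgeR's quasi-likelihood test, 0 of 9 genes had an adjusted p under 0.05 and 0 of 9 had an unadjusted p under 0.05, and DESeq2 gave 0 of 9 on both counts as well. By the study's own threshold, an unadjusted p under 0.05 with a change by 1 log2 unit or more, 0 of 9 genes passed in each comparison. Over the 11393 genes tested, the share with an adjusted p under 0.05 was 0.0614% in HFD vs NC, 0% in DPI vs vehicle and 0.00878% in DPI vs NC. The share past the study's threshold was 11.7% in HFD vs NC, 2.84% in DPI vs vehicle and 9.29% in DPI vs NC. The 470 genes with an unadjusted p under 0.05 in DPI vs vehicle included no gene with an adjusted p under 0.05, where DESeq2 called 2. The biological coefficient of variation was 0.650, and a miss at this spread and these group sizes does not show that a gene was the same in both groups, so that each difference is given with its 95% interval.

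Per length of exon, Apoe was the highest of the 9 genes by far, Abca1 was the lowest and Abcg1 was in the middle of the order. The median over the 9 libraries was 1981 CPM per kb for Apoe (1082 to 3462) and 178 CPM per kb for Npc2 (135 to 231). Soat1 followed at 14.6 (11.8 to 24.0), Nr1h2 at 11.6 (9.17 to 17.7), Abcg1 at 8.29 (3.83 to 13.1), Nr1h3 at 7.40 (1.95 to 15.5) and Mylip at 6.51 CPM per kb (4.24 to 10.8). Npc1 at 1.84 (1.04 to 2.99) and Abca1 at 1.21 CPM per kb (0.840 to 1.62) were the lowest. Apoe lay above Npc2, Npc2 above Soat1 and Mylip above Npc1 in all 9 libraries without overlap of the ranges, while every other pair of neighbours in this order overlapped. Abcg1 was above Nr1h3 in 4 of 9 libraries and Nr1h3 above Mylip in 5 of 9, so that the order of these 3 genes is not resolved. With the length of the longest transcript in place of all exons, Nr1h2 (19.4 CPM per kb) came above Soat1 (17.0).

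**Figure D1:**
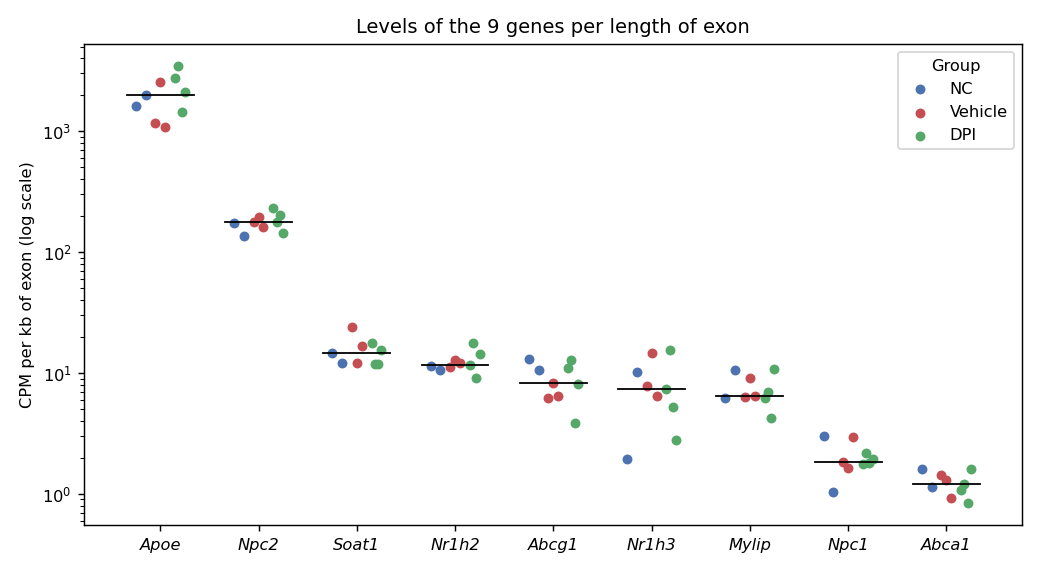
Level of each of the 9 genes in CPM per kb of exon (log scale), with 1 point per library coloured by group and a line at the median of the 9 libraries. Apoe (median 1981) and Npc2 (178) stand apart from the other 7 genes, whose medians lie between 14.6 and 1.21.

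The genes lie on 8 chromosomes of GRCm38, Nr1h3 on chromosome 2 (91184061 to 91202834), Nr1h2 on 7 (44549616 to 44553951), Abca1 on 4 (53030787 to 53159895), Abcg1 on 17 (31057675 to 31117988) and Apoe on 7 (19696109 to 19699188). Mylip lies on chromosome 13 (45389742 to 45412022), Npc1 on 18 (12189692 to 12236400), Npc2 on 12 (84754562 to 84773152) and Soat1 on 1 (156424525 to 156474331). Exons of Npc1 share 511 bases (4.52%) with Rmc1 and 90 bases (0.795%) with the transcript Gm15956, both on the opposite strand. Of Nr1h3, 34 bases (1.35%) are shared with the transcript Gm13783 on the same strand. Reads from the stretch on the same strand cannot be assigned to 1 gene. Those from the opposite strand can be only if the libraries kept the strand, which the methods do not state.

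The receptor genes differed in their spread. Nr1h2, the ubiquitous LXR, stood at 38.2 and 35.2 CPM with NC, at 37.9, 42.9 and 40.8 CPM with vehicle and at 38.9, 59.4, 30.8 and 48.5 CPM with DPI. DPI libraries held the lowest value and the 2 highest, the other 6 libraries lay between 35.2 and 42.9 CPM, and the groups overlapped. The log2 fold change was 0.14 in HFD vs NC (95% interval -0.67 to 0.95), 0.13 in DPI vs vehicle (-0.55 to 0.80) and 0.27 in DPI vs NC (-0.50 to 1.04). Nr1h3, the LXR of macrophages and liver and a KC marker gene, stood at 4.91 and 25.5 CPM with NC, at 19.7, 36.9 and 16.3 CPM with vehicle and at 18.6, 39.0, 13.2 and 7.03 CPM with DPI. The NC libraries held 27 and 137 counts, the coefficient of variation was 95.8% with NC, 45.4% with vehicle and 71.3% with DPI, and its intervals were the widest of the 9 genes. Its log2 fold change was 0.68 in HFD vs NC (SE 0.78, -1.01 to 2.36), -0.34 in DPI vs vehicle (SE 0.64, -1.72 to 1.04) and 0.34 in DPI vs NC (SE 0.74, -1.26 to 1.93). The NC libraries decided the values of HFD vs NC and DPI vs NC. Without NC library 2, Nr1h3 passed the study's threshold in HFD vs NC (log2 fold change 2.34) and DPI vs NC (1.99), with NC library 1, the lowest of all, left as the group. A lone NC library is assumed to vary like the libraries of the other groups, here and wherever an NC library is left out. Without NC library 1 the log2 fold changes were -0.05 and -0.40. In DPI vs vehicle it was -0.92 without DPI library 2 and 0.10 without vehicle library 2.

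**Figure D2:**
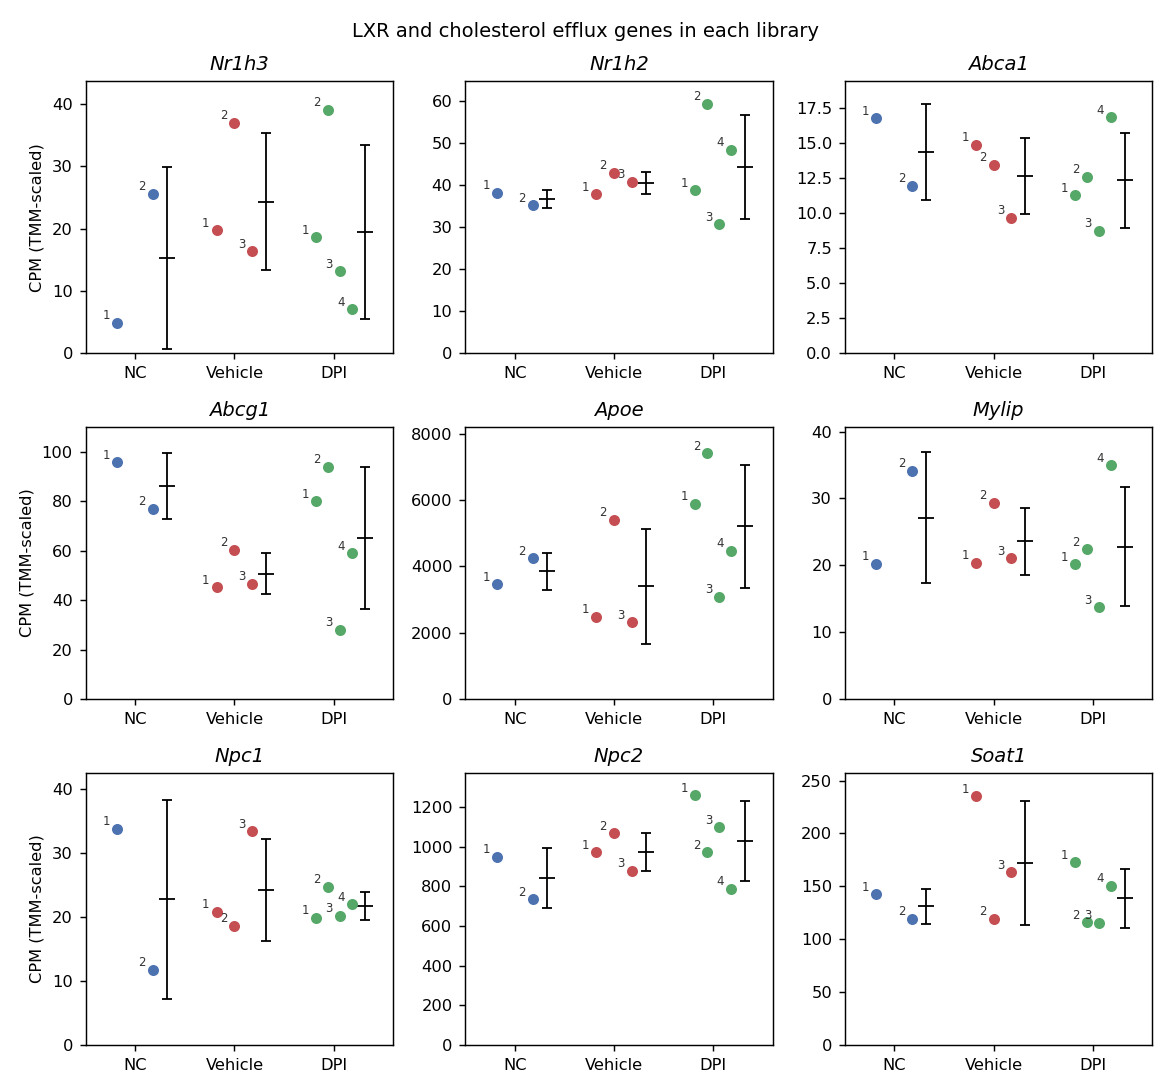
TMM-scaled CPM of the 9 genes in each library, with points numbered by replicate, and the mean and SD of each group beside them. Abcg1 was lower in the 3 vehicle libraries than in both NC libraries, and every other panel shows overlapping groups.

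Abcg1 was the only one of the 9 genes whose vehicle and NC libraries did not overlap. It stood at 95.8 and 77.0 CPM with NC, at 45.2, 60.5 and 46.8 CPM with vehicle and at 80.1, 94.0, 28.0 and 59.0 CPM with DPI, that is 86.4 ± 13.3 (SD, n = 2), 50.8 ± 8.41 (SD, n = 3) and 65.3 ± 28.7 CPM (SD, n = 4). All 3 vehicle libraries were below both NC libraries, and DPI libraries were found above, within and below the vehicle range. Groups without overlap were frequent in HFD vs NC, with 12.5% of all genes lower and 15% higher, so that 1 of 9 genes lower and 0 higher is near the background. The log2 fold change was -0.77 in HFD vs NC (SE 0.43, -1.70 to 0.17), with an adjusted p of 0.475 by edgeR, 0.36 in DPI vs vehicle (SE 0.37, -0.44 to 1.16) and -0.41 in DPI vs NC (SE 0.41, -1.29 to 0.48). In the other comparisons none of the 9 genes had groups apart, where 3.38% of all genes were higher and 2.48% lower in DPI vs vehicle, and 11.7% higher and 8.49% lower in DPI vs NC. With library totals as the only scaling, the log2 fold change of Abcg1 in HFD vs NC was -1.05 and passed the study's threshold, while the median of all genes moved from 0.03 to -0.26.

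Markers of sinusoidal endothelial cells and some macrophage and monocyte genes moved with Abcg1. The 9 markers, led by Clec4g and Stab2, summed to 147 and 247 CPM with NC, to 9.42 to 16.0 CPM with vehicle and to 179, 85.5, 4.26 and 32.5 CPM with DPI. In HFD vs NC, 8 of the 9 were lower and 5 of them passed the study's threshold, and Clec4g had no counts in vehicle libraries 1 and 2. The ninth, Pecam1, an adhesion gene that leukocytes express as well, was higher past the threshold (log2 fold change 2.66, SE 1.05), at 0.909 and 1.12 CPM with NC and 1.73 to 9.06 CPM with vehicle, a call lost without NC library 1 or vehicle library 1 or 2. The 4 libraries with the highest Abcg1 had the 4 highest endothelial sums, and DPI library 3 was lowest in both. Emr1, which encodes the F4/80 antigen used in the sort, was at 139 and 114 CPM with NC and 54.9 to 67.2 CPM with vehicle (-1.05, SE 0.38), and the chemokine receptor gene Ccr2 was at 513 and 358 CPM with NC and 147 to 223 CPM with vehicle (-1.23, SE 0.45). Both passed the study's threshold in HFD vs NC, and both calls were lost without NC library 1 or vehicle library 3. In the macrophage list 4 markers were higher and 5 lower in HFD vs NC, and in the monocyte list 3 were higher and 4 lower. Ly6c2 rose past the threshold (1.04, SE 0.35), and Plac8 (0.36) and Cd68 (0.53) were also higher, each without overlap of the groups. Hepatocyte markers, mostly Trf and Alb, summed to 335 and 473 CPM with NC, 168 to 214 CPM with vehicle and 207 to 343 CPM with DPI. Their part in the Abcg1 levels was not tested. In these bulk libraries a smaller number of cells of a type and less RNA per cell cannot be told apart.

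**Figure D3:**
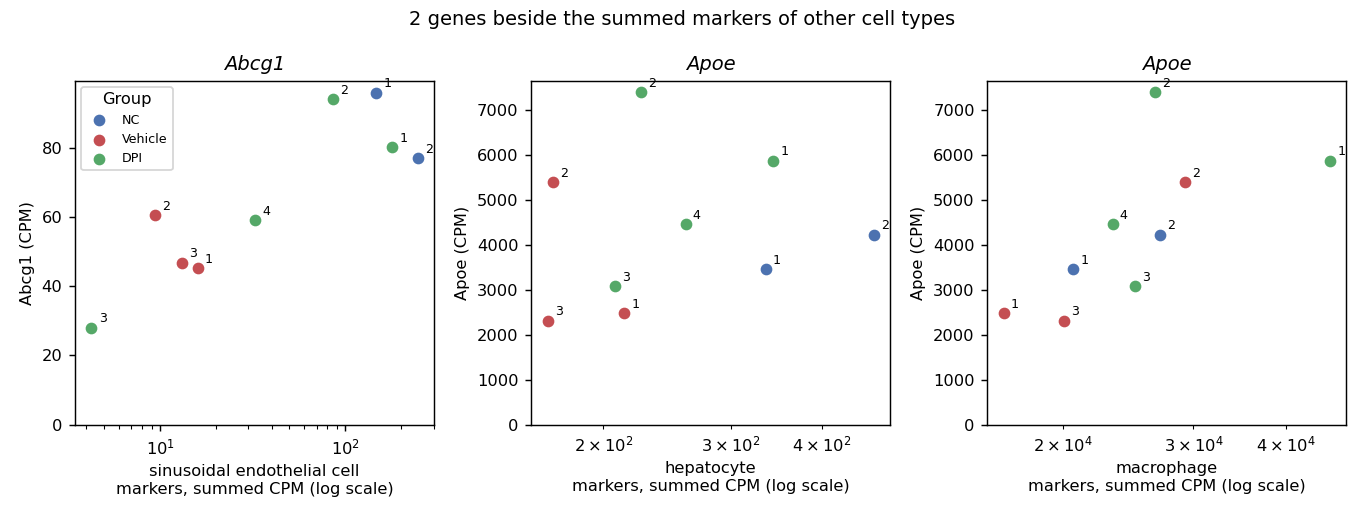
Abcg1 against the summed CPM of 9 sinusoidal endothelial markers, and Apoe against 13 hepatocyte and 9 macrophage markers (marker sums on log scales), 1 numbered point per library coloured by group. DPI library 3 (4.26 CPM of endothelial markers) has the lowest Abcg1, and the vehicle libraries 1 and 3 have the lowest Apoe and the lowest macrophage sums. The macrophage sums are mostly Lyz2.

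Abca1, the other LXR-driven transporter, showed no such split. It stood at 16.7 and 11.9 CPM with NC, at 14.9, 13.4 and 9.65 CPM with vehicle and at 11.3, 12.6, 8.71 and 16.8 CPM with DPI, from 37 to 184 counts per library. All groups covered about the same range. The log2 fold change was -0.18 in HFD vs NC (-1.39 to 1.03), -0.03 in DPI vs vehicle (-1.05 to 0.98) and -0.22 in DPI vs NC (-1.35 to 0.92).

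Apoe had the largest difference between DPI and vehicle among the 9 genes, within the spread of the libraries. It stood at 3458 and 4235 CPM with NC, at 2478, 5403 and 2312 CPM with vehicle and at 5883, 7401, 3079 and 4459 CPM with DPI. The means were 3847 ± 549.9 (SD, n = 2), 3398 ± 1739 (SD, n = 3) and 5205 ± 1858 CPM (SD, n = 4). The 2 highest values were DPI libraries and the 2 lowest were vehicle libraries, but vehicle library 2 exceeded DPI libraries 3 and 4. The log2 fold change was 0.62 in DPI vs vehicle (SE 0.34, -0.11 to 1.34), with an adjusted p of 0.999 by edgeR. It was -0.18 in HFD vs NC (SE 0.39, -1.03 to 0.67) and 0.44 in DPI vs NC (SE 0.38, -0.39 to 1.26). Without vehicle library 2 the difference between DPI and vehicle was 1.12 and passed the study's threshold, and without any other library it did not.

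Marker sums followed Apoe in some libraries and not in others. Vehicle libraries 1 and 3, the lowest in Apoe, had the lowest macrophage sums (16661 and 20069 CPM). Most of each sum was Lyz2, at 13962 and 17538 CPM there. Other markers of the list did not all follow. In these libraries Cd68 was at 375 and 303 CPM, in a range over all libraries of 235 to 391 CPM. Emr1 was at 61.4 and 54.9 CPM, in a range of 54.9 to 142 CPM. Eosinophil granule markers, led by Prg2, summed to 110, 111 and 63.9 CPM in DPI libraries 1, 2 and 4 and to at most 1.99 CPM in the other 6 libraries, and the Apoe level of these DPI libraries exceeded that of DPI library 3. Vehicle library 2, with 1.99 CPM of eosinophil markers, had more Apoe than DPI library 4. Hepatocytes also express Apoe, and Alb, their most abundant secreted product, was at 5.43 to 107 CPM. It was lowest in vehicle library 2, the third highest in Apoe, and highest in NC library 2, in the middle of the Apoe range. The 13 hepatocyte markers summed to 168 CPM in vehicle library 3, the lowest in both, and to 343 CPM in DPI library 1, the second highest in both. Their sum was 225 CPM in DPI library 2, the highest in Apoe, and 171 CPM in vehicle library 2. The part of eosinophil, macrophage and hepatocyte content in the Apoe levels was not tested.

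Mylip, the E3 ligase acting on the LDL receptor, was at 20.2 and 34.1 CPM with NC, at 20.4 to 29.3 CPM with vehicle and at 13.7 to 34.9 CPM with DPI. DPI libraries held both the lowest and the highest value. Its log2 fold change was -0.20 in HFD vs NC (-1.28 to 0.87), -0.05 in DPI vs vehicle (-0.95 to 0.85) and -0.25 in DPI vs NC (-1.26 to 0.76).

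The lysosomal pair differed in how well it was measured. Npc2, the soluble carrier, was among the least variable of the 9 genes, at 950 and 733 CPM with NC, 972, 1066 and 878 CPM with vehicle and 1258, 970, 1097 and 786 CPM with DPI. All groups overlapped. Its intervals were the narrowest, with a log2 fold change of 0.21 in HFD vs NC (-0.37 to 0.79), 0.08 in DPI vs vehicle (-0.40 to 0.57) and 0.29 in DPI vs NC (-0.27 to 0.84), so that a change of 1 log2 unit lies outside each of them. Npc1, the membrane protein that receives cholesterol from NPC2, stood at 33.8 and 11.7 CPM with NC, at 20.8, 18.7 and 33.4 CPM with vehicle and at 19.9, 24.8, 20.2 and 22.0 CPM with DPI. The NC libraries marked both the highest and the lowest value, and the DPI libraries were close together (21.7 ± 2.24, SD, n = 4). The log2 fold change was 0.09 in HFD vs NC (-1.03 to 1.21), -0.16 in DPI vs vehicle (-1.10 to 0.77) and -0.07 in DPI vs NC (-1.13 to 0.99).

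Soat1, which moves cholesterol into stored esters, stood at 143 and 119 CPM with NC, at 235, 119 and 163 CPM with vehicle and at 173, 116, 115 and 151 CPM with DPI. Vehicle library 1 was the highest and vehicle library 2 was near the lowest of the other groups. The log2 fold change was 0.40 in HFD vs NC (SE 0.35, -0.35 to 1.14), -0.31 in DPI vs vehicle (SE 0.29, -0.93 to 0.31) and 0.08 in DPI vs NC (SE 0.33, -0.62 to 0.79). Without vehicle library 1 the first 2 were 0.15 and -0.027.

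Across the 9 genes the signs were mixed. In HFD vs NC 5 of them were higher and 4 lower, and their median log2 fold change was 0.09, against 0.03 over all genes tested, and with library totals as the only scaling Nr1h2, Npc1 and Npc2 turned from higher to lower. The median was -0.03 in DPI vs vehicle (4 higher, 5 lower) against 0.04 over all genes, and 0.08 in DPI vs NC (5 higher, 4 lower) against 0.04. The smallest unadjusted p among them came from Abcg1 in HFD vs NC (0.101 by edgeR) and from Apoe in DPI vs vehicle (0.0886 by edgeR).

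**Figure D4:**
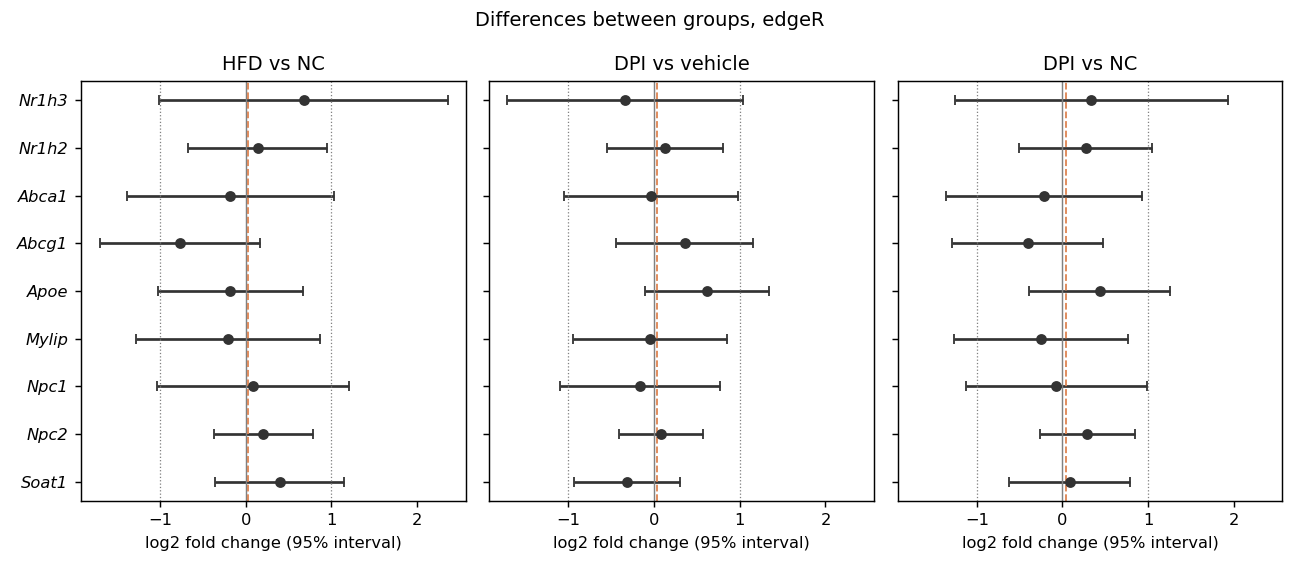
log2 fold change of the 9 genes with its 95% interval from edgeR in each of the 3 comparisons, with dotted lines at -1 and 1 and a dashed line at the median of all genes tested (0.03, 0.04 and 0.04). Every interval includes 0, Nr1h3 has the widest and Npc2 the narrowest.

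Ratios within a library do not depend on the scaling between libraries, and 4 of them were compared in 3 comparisons, 12 tests in all. The log2 ratio of Nr1h3 to Nr1h2 counts was -2.94 and -0.46 in NC, -0.94, -0.22 and -1.32 in vehicle and -1.06, -0.60, -1.22 and -2.78 in DPI libraries. LXRβ counts thus exceeded LXRα counts in all 9 libraries, by an amount that varied within each group. The ratio of Abca1 to Abcg1 was -2.51 and -2.68 in NC, -1.60, -2.17 and -2.26 in vehicle and -2.83, -2.89, -1.67 and -1.81 in DPI libraries on the same scale. The vehicle libraries were all above the NC libraries, by 0.59 on average, with a two-sided exact permutation p of 0.2 (0.982 adjusted over the 12 tests), and the DPI libraries fell on both sides. The remaining tests, which included Npc1 to Npc2 and Soat1 to the ester hydrolase gene Nceh1, had overlapping groups and an exact permutation p of 0.429 or above. The smallest p these designs allow is 0.1 in HFD vs NC, 0.0286 in DPI vs vehicle and 0.0667 in DPI vs NC.

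The genes whose levels ran most alike with a transporter or LXRα over the 9 libraries were listed by the Pearson correlation of log2 CPM, as a description of points that share depth and group. For Abca1 they were Hectd3 (r 0.960), Gltscr1l (0.927), Ehmt1 (0.902), Ptpn12 (0.901) and Ccdc6 (0.901), and r stayed between 0.83 and 0.97 without the 2 libraries farthest from the median, DPI 3 and 4. For Abcg1 they were Cd81 (0.957), Trem2 (0.942), Cd2bp2 (0.941), Ankrd13d (0.940) and Josd2 (0.923), with r between 0.790 and 0.924 without DPI library 3 and NC library 1. For Nr1h3 they were Ccdc77 (0.966), AI413582 (0.959), Pja1 (0.943), Cst3 (0.935) and Gapdh (0.928), with r between 0.741 and 0.900 without NC library 1 and DPI library 4. No other gene of the 9 was among these. Abca1 and Abcg1 correlated with r 0.520 (Spearman's rho 0.317), Abcg1 and Apoe with 0.634 (rho 0.633), Nr1h3 and Abcg1 with 0.0525 (rho 0.133) and Nr1h3 and Abca1 with -0.363 (rho -0.167). For Nr1h2 the values were 0.527 with Abcg1 (rho 0.367) and 0.398 with Abca1 (rho 0.383).

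The wider pathway was described by 9 lists, whose counts stand beside the 11.7% (HFD vs NC), 2.84% (DPI vs vehicle) and 9.29% (DPI vs NC) of all genes past the study's threshold, with no test of a list. Of the other LXR targets, 14 were tested in HFD vs NC, 2 rose and 3 fell by the study's threshold, and the median log2 fold change was -0.81. Lpl, the lipase that frees fatty acids from lipoproteins, rose from 21.6 and 22.4 CPM with NC to 121, 231 and 94.8 CPM with vehicle, a log2 fold change of 2.76 (SE 0.42) with an adjusted p of 0.0452 by edgeR, and stood at 75.3 to 81.1 CPM with DPI. Its adjusted p by edgeR was 0.0524 to 0.0964 without NC library 1, vehicle library 1 or 2, or any 1 DPI library, 0.0847 with library totals as the only scaling, 0.183 with 2 groups only and 0.166 with the replicate number as a block, while it kept its call by the study's threshold without each library. The lipoprotein lipase cofactor gene Apoc2 (-1.10, SE 0.40) and the ectoenzyme gene Cd38 (-1.49, SE 0.61) fell, and both calls were lost without NC library 2 and without vehicle library 1 or 3. Apoc2 is also a hepatocyte product, and 12 of 13 hepatocyte markers were lower in HFD vs NC, 4 of them past the threshold, with a median of -2.43. Their part in the list was not tested. In DPI vs vehicle 0 rose and 1 fell, the fatty acid synthase gene Fasn (-1.54, SE 0.53), from 9.24 to 23.3 CPM down to 3.61 to 8.14 CPM, with a median of 0.15, and the call was lost without vehicle library 3. In DPI vs NC 2 rose and 2 fell, with Lpl at 1.82, Fasn at -2.48 and the desaturase gene Scd2 at -1.82.

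Of the RXR partners and coregulators, 14 were tested, and in HFD vs NC 0 rose and 1 fell, Rxra, the partner through which LXR binds DNA. Rxra stood at 46.9 and 13.4 CPM with NC, at 5.43 to 10.1 CPM with vehicle and at 1.41 to 13.9 CPM with DPI, a log2 fold change of -1.83 (SE 0.83) in HFD vs NC and -1.89 (SE 0.76) in DPI vs NC. The high value was NC library 1, and without it the log2 fold changes were -0.65 and -0.71 and not past the threshold. The call in HFD vs NC was also lost without vehicle library 1, 2 or 3 and without DPI library 2 or 3 (log2 fold changes of -1.58 to -1.92), and that in DPI vs NC without DPI library 3. The medians of this list were -0.28, -0.27 and -0.26 in HFD vs NC, DPI vs vehicle and DPI vs NC. In DPI vs vehicle 0 rose and 0 fell, and in DPI vs NC 1 rose (the corepressor gene Nrip1, from 2 and 5 counts) and 2 fell, Rxra among them. The call of Nrip1 was lost without NC library 1 or DPI library 4. Of 6 genes for sterol ligands, 2 were tested and none passed.

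Of 10 other lysosomal genes, 1 rose in HFD vs NC and in DPI vs NC and 0 in DPI vs vehicle, Tmem97, an NPC1-binding protein, which had 1 and 0 counts with NC, 13 to 85 with vehicle and 6 to 108 with DPI, and the medians were -0.39, -0.17 and 0.11. Of 6 ester storage genes, 1 rose in HFD vs NC, the droplet coat gene Plin2, from 193 and 203 CPM with NC to 362, 698 and 357 CPM with vehicle (1.25, SE 0.37), and the call was lost without vehicle library 2 and with library totals as the only scaling. None passed in DPI vs vehicle, where the median was -0.32 and Plin2 stood at 252 to 453 CPM with DPI. Of 10 sterol transfer genes none passed in any comparison, with medians of -0.40, 0.15 and -0.17 in HFD vs NC, DPI vs vehicle and DPI vs NC.

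Uptake receptors bring lipoprotein cholesterol and fatty acids into the cell. Of 8 uptake genes tested, 2 rose and 0 fell in HFD vs NC. The fatty acid and oxidised LDL receptor gene Cd36 rose from 26.9 and 28.5 CPM with NC to 110, 87.8 and 81.4 CPM with vehicle (log2 fold change 1.75, SE 0.47), and stood at 22.5, 37.7, 47.1 and 73.4 CPM with DPI, a fall of -1.04 (SE 0.36) against vehicle. All 4 DPI libraries were below all 3 vehicle libraries, and this second call was lost without vehicle library 1, without DPI library 1 or 2, and with library totals as the only scaling. The oxidised LDL receptor gene Olr1 rose from 1.82 and 0.373 CPM with NC to 9.24 to 13.6 CPM with vehicle (3.39, SE 1.10). Olr1 was also the only uptake gene past the threshold in DPI vs NC (2.52, SE 1.04), a call lost without NC library 2 and without DPI library 3 or 4. Marker sums of other antigen-presenting cells were also higher with vehicle than with NC. The 7 dendritic cell markers summed to 55.1 and 108 CPM with NC and 193 to 310 CPM with vehicle. In DPI libraries 1 to 4 they summed to 122, 138, 256 and 408 CPM, the order in which Cd36 stood there. In HFD vs NC 3 of 7 were higher and 4 lower, with a median of -0.17, and only Ccr7 passed the threshold. With vehicle Ccr7 made up most of the sum (114, 276 and 142 CPM). In DPI libraries 1 to 4 Ccr7 followed the order of Cd36 (33.9, 73.9, 122 and 319 CPM), and Cd209a did not (63.8, 30.5, 92.3 and 63.1 CPM). The 5 B cell markers summed to 14.9 and 69.0 CPM with NC, 93.3 to 179 CPM with vehicle and 15.6 to 404 CPM with DPI, and 5 of 5 were higher in HFD vs NC, 1 of them past the threshold. Their part in the levels of Cd36, Olr1, Lpl and Plin2 was not tested. The median of the uptake list was 0.12 in HFD vs NC, -0.15 in DPI vs vehicle and 0.13 in DPI vs NC. Of 3 further efflux genes tested, 0 rose and 1 fell in HFD vs NC, the phospholipid transporter gene Abca7 (-1.19, SE 0.47), at 99.5 and 33.7 CPM with NC and 17.7 to 37.2 CPM with vehicle, a call lost without NC library 1 (-0.20) and without vehicle library 2 (-0.93). The median of these 3 genes was -1.19 in HFD vs NC and 0.69 in DPI vs vehicle, or 0.41 with Lcat, which had no counts in the vehicle libraries, at its bound of 3 counts per library.

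Of 22 genes of SREBP2 control and cholesterol synthesis, the arm that raises the cholesterol of a cell, 5 rose and 1 fell in HFD vs NC with a median of 0.15. Fdps, an enzyme of isoprenoid synthesis, had 0 counts in both NC libraries, 117 to 125 counts with vehicle and 41 to 279 with DPI, and had the smallest adjusted p of all genes in HFD vs NC (0.00646 by edgeR) and in DPI vs NC (0.00869 by edgeR). Its adjusted p by edgeR missed the threshold with 2 groups only (0.183 and 0.217) and with the replicate number as a block (0.161 and 0.123). Insig2, which retains SREBP in the endoplasmic reticulum, had 1 and 0 counts with NC and 10 to 50 with vehicle, and the squalene synthase gene Fdft1 rose by 1.77 (SE 0.66), a call that was lost without NC library 1 or vehicle library 1. In DPI vs vehicle 1 rose and 2 fell with a median of -0.05. The mevalonate kinase gene Mvk, the gene that fell in HFD vs NC, had 48 and 1 counts with NC, 0, 0 and 2 with vehicle and 6 to 76 with DPI, and the call in HFD vs NC was lost without NC library 1 or vehicle library 1 or 2. Srebf2 rose by 1.59 (SE 0.62) in HFD vs NC, from 10.7 and 22.7 CPM with NC, a call lost without NC library 1 or vehicle library 1 and with library totals as the only scaling. Against vehicle, DPI libraries had less Srebf2, which fell by 1.17 (SE 0.49) from 28.1 to 82.0 CPM down to 11.2 to 38.2 CPM, and the sterol oxidase gene Sc4mol fell by 1.00 (SE 0.44). Each of the 3 calls in DPI vs vehicle was lost without vehicle library 1, that of Mvk also without vehicle library 2 or DPI library 1, that of Srebf2 without DPI library 1, 2 or 4, and that of Sc4mol without vehicle library 2 and DPI library 2 or 4. With library totals as the only scaling Srebf2 and Sc4mol did not pass either. Srebf2, which encodes SREBP2 itself, had a log2 fold change of -0.63 in DPI vs vehicle without vehicle library 1. In DPI vs NC 5 rose and 1 fell, Fdps, Insig2 (18 to 78 counts with DPI) and Sc4mol (-1.28, SE 0.49) among them, with a median of 0.15, and the call of Sc4mol was lost without NC library 1 or DPI library 2.

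**Figure D5:**
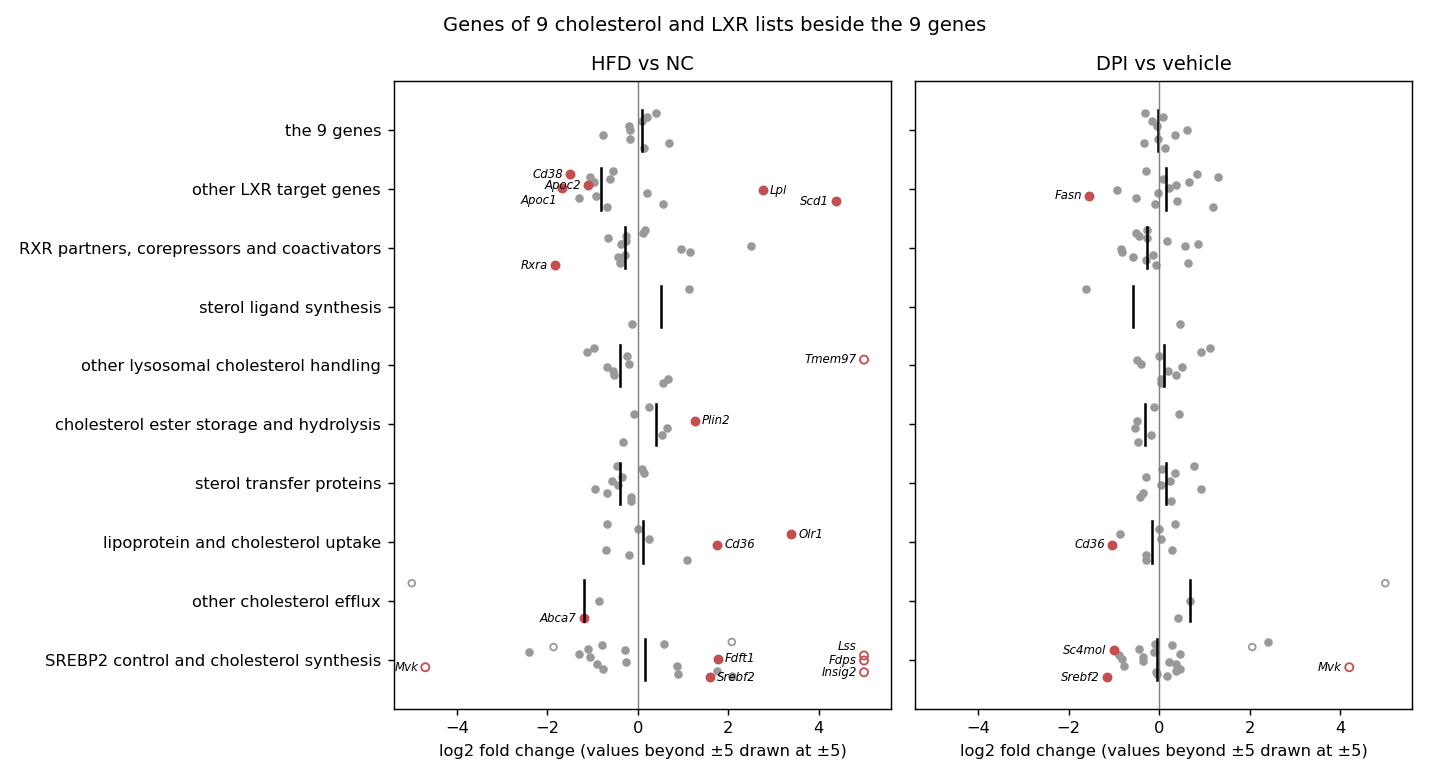
log2 fold change of each tested gene of the 9 genes and of the 9 pathway lists in HFD vs NC and DPI vs vehicle, red past the study's threshold, open where a group had at most 3 counts in every library, with a bar at the median of each list. None of the 9 genes is red, and Lpl, Cd36 and Olr1 kept their call by this threshold in HFD vs NC without each library in turn.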

How the data were processed

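RNA-seq counts of sorted liver macrophages in 9 libraries (2 NC, 3 vehicle, 4 DPI) were analysed. The authors deposited raw whole-number counts per gene, without normalization, for 23413 genes. The methods name bowtie2 and RSEM on mm10, the labels name TopHat2 and edgeR, and the gene annotation is not given in the sources used here. Groups and replicate numbers were taken from the titles, and every column was mapped (0 columns not used). Each title names 1 mouse, a figure legend of the study gives 6 mice per group, and how the mice relate to the libraries is not given in the sources used here, so that p-values measure the spread between these libraries.

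The count test was edgeR 4.0.16 in R 4.3.3 (filterByExpr, TMM factors, glmQLFit over the 3 groups), with Benjamini-Hochberg adjustment over 11393 genes. SE is the size of the log2 fold change divided by the root of F, and the 95% intervals use the moderated degrees of freedom. CPM are counts scaled to a common library total with TMM factors, and log2 CPM used a prior count of 2. Within-library ratios had 0.5 added to each count and were compared by two-sided exact permutation tests. Replicates were compared for identity, and no pair agreed within sampling noise. Library totals of 3534325 to 15585775 counts set the precision, and floors cover counting error only, since reads amplified by PCR can stem from the same molecule.

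Exons and positions are from GENCODE M21 (GRCm38), promoters from RefSeq (GRCm38.p6), read with Python 3.11.15, pandas 2.3.3 and numpy 2.4.6. The members and lists were chosen with earlier results of these data known. Named genes were all 9 members in each comparison, from each pathway list at most 3 genes per comparison with the smallest unadjusted p among those past the study's threshold, the 5 genes most correlated with Abca1, Abcg1 and Nr1h3, marker genes of lists that moved with a member, and the 2 most abundant genes of a marker list. For 1 of the genes that this rule names, no result is reported here. The alternatives tried were scaling by RLE or by library size, testing all genes or those with at least 10 counts in every library, DESeq2 1.42.0, edgeR's likelihood ratio test, fits of the 2 groups compared, a block for the replicate number, no Rn45s counts, 1 added to each count of a ratio, and each library left out. Thinning to the smallest depth (seed 1), and the library size and left-out-library fits of the genes named from lists (of the marker genes, Emr1, Ccr2, Pecam1 and Id3 only) and of the list counts, and the adjusted p of Lpl and Fdps in each setting, were chosen after seeing the data. Scripts were tested on simulated data.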

Additional observations from a re-analysis of the deposited data

How the results depend on the processing

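In every alternative 0 of the 9 genes had an adjusted p under 0.05. The number past the study's threshold was 0 except for 1 in HFD vs NC with library size alone (Abcg1, log2 fold change -1.05, unadjusted p of 0.0314 by edgeR), and it ranged from 0 to 1 in each comparison when a library was left out (Nr1h3 without NC 2 in HFD vs NC and DPI vs NC, Apoe without vehicle 2 in DPI vs vehicle). In HFD vs NC Abcg1 had an unadjusted p of 0.0492 with 2 groups only and of 0.0471 without DPI 3 by edgeR, and Apoe one of 0.033 in DPI vs vehicle without DPI 3, all below 1 log2 unit. Library size alone moved the median of all genes to -0.26 in HFD vs NC, 0.12 in DPI vs vehicle and -0.17 in DPI vs NC, and changed the calls in HFD vs NC from 801 higher and 528 lower to 539 and 933, in DPI vs vehicle from 171 and 153 to 196 and 101, and in DPI vs NC from 711 and 347 to 546 and 624. It reversed Nr1h2 (-0.15), Npc1 (-0.25) and Npc2 (-0.082) in HFD vs NC, Abca1 (0.031) and Mylip (0.030) in DPI vs vehicle and Soat1 (-0.12) in DPI vs NC. It gave 5 lower other LXR targets, 0 higher ester storage genes and 3 lower SREBP2 genes in HFD vs NC, 0 lower uptake and 0 lower SREBP2 genes in DPI vs vehicle, and 1 lower efflux gene and 2 higher SREBP2 genes in DPI vs NC.

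Deviations of same-numbered libraries of different groups from their group means correlated at -0.022 to 0.0841. The means are of 2 to 4 libraries, and the 2 NC libraries deviate by equal and opposite amounts. These values therefore cannot decide whether the replicate numbers pair the libraries. With the replicate block, Apoe had a log2 fold change of 0.026 in HFD vs NC, and an unadjusted p of 0.00784 in DPI vs vehicle and 0.0148 in DPI vs NC by edgeR, below 1 log2 unit and not called after adjustment, and the block left 0 genes with an adjusted p under 0.05 in each comparison.

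With a library left out, values that changed sign ranged as follows in HFD vs NC, Nr1h3 -0.053 to 2.34, Abca1 -0.37 to 0.093, Apoe -0.68 to 0.089, Mylip -0.52 to 0.26 and Npc1 -0.45 to 1.05. In DPI vs vehicle they were Nr1h2 -0.048 to 0.27, Nr1h3 -0.92 to 0.10, Abca1 -0.22 to 0.10, Mylip -0.33 to 0.14, Npc1 -0.32 to 0.13 and Npc2 -0.031 to 0.19. In DPI vs NC they were Nr1h3 -0.40 to 1.99, Abca1 -0.41 to 0.057, Mylip -0.57 to 0.21, Npc1 -0.61 to 0.89 and Soat1 -0.041 to 0.23. Log2 ratios that changed sign ranged from -0.36 to 2.11 (HFD vs NC) and -0.95 to 1.52 (DPI vs NC) for Nr1h3 to Nr1h2, from -0.55 to 0.59 (HFD vs NC), -0.42 to 0.14 (DPI vs vehicle) and -0.74 to 0.41 (DPI vs NC) for Npc1 to Npc2, and from -0.45 to 0.16 (HFD vs NC) and -0.42 to 0.18 (DPI vs vehicle) for Soat1 to Nceh1. Abcg1 kept its sign in every alternative, as did Apoe in DPI vs vehicle, but with a library left out Abcg1 ranged from -0.91 to -0.59 in HFD vs NC, 0.13 to 0.61 in DPI vs vehicle and -0.59 to -0.16 in DPI vs NC, Apoe from 0.39 to 1.12 in DPI vs vehicle and 0.26 to 0.62 in DPI vs NC, Soat1 from 0.15 to 0.60 in HFD vs NC and -0.52 to -0.027 in DPI vs vehicle, Npc2 from 0.063 to 0.42 in HFD vs NC and 0.14 to 0.50 in DPI vs NC, and Nr1h2 from 0.10 to 0.24 in HFD vs NC and 0.14 to 0.41 in DPI vs NC.

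With a library left out, the list counts that moved by over 1.5 times ranged in HFD vs NC from 1 to 2 higher and 0 to 3 lower for other LXR targets, 0 to 3 higher and 0 to 1 lower for RXR partners, 1 to 3 higher and 0 to 1 lower for lysosomal genes, 0 to 2 higher for storage, 0 to 1 higher and 0 to 1 lower for sterol transfer, 0 to 1 lower for efflux, and 2 to 7 higher and 0 to 1 lower for SREBP2. In DPI vs vehicle they ranged from 0 to 1 higher and 1 to 2 lower for other LXR targets, 0 to 2 lower for RXR partners, 0 to 1 lower for uptake, and 0 to 1 higher and 0 to 2 lower for SREBP2. In DPI vs NC they ranged from 1 to 2 higher for other LXR targets, 0 to 2 higher and 0 to 3 lower for RXR partners, 0 to 1 higher for ligand synthesis, 1 to 3 higher for lysosomal genes, 0 to 1 higher for storage, 0 to 1 higher and 0 to 1 lower for sterol transfer, 0 to 1 higher for uptake, 0 to 1 lower for efflux, and 2 to 6 higher and 0 to 2 lower for SREBP2.

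The number of genes of the whole table with an adjusted p under 0.05, 7, 0 and 1 in HFD vs NC, DPI vs vehicle and DPI vs NC, was 312, 2 and 219 by DESeq2, 280, 1 and 186 by the likelihood ratio test, 52, 0 and 22 with no filter, 1, 0 and 1 with library size alone or at least 10 counts in every library, 0, 0 and 0 with 2 groups only, 3, 0 and 3 after thinning, 568, 0 and 572 without NC library 2, and 3, 0 and 4 without NC library 1, fits in which the lone NC library is assumed to vary like the other groups. Without vehicle 3 it was 2, 0 and 1, and without vehicle 1 or 2 or any 1 DPI library it was 1, 0 and 1. The cause of these changes was not tested. Nr1h3 had 27 to 304 counts and Abca1 37 to 184, and thinning every library to the smallest depth brought no call of the 9 genes. No value of the 9 genes or their ratios lay apart from the rest of its group in the 4 DPI libraries by Dixon's criterion, which was applied to groups of 4 or more libraries only.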
